A study of Danio rerio with 2 samples.

Results

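Open chromatin was examined at 10 genes for receptors, junction proteins and their partners in the endothelium: kdrl, tek, aplnra, aplnrb, nrp1a, nrp1b, cldn5b, pecam1, yrk and sox18. Of these, yrk encodes a cytoplasmic kinase and sox18 a transcription factor, so neither is a receptor or a junction gene in the strict sense. A region of open chromatin was counted for a gene if the deposited table assigned it to that gene. An unassigned region was added if its centre lay within 50 kb of the gene's transcription start site (TSS) and no other TSS in the table was nearer. This gave 27 of the 35854 regions in the table, 15 of them assigned and 12 added. Of the 27 regions, 9 had their centre within 1 kb of the TSS and are called promoter regions, and the other 18 are called distal. By the same rule 28838 regions of the table had a gene, 13036 of them promoter and 15802 distal.

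The measurements are ATAC-seq, in which the transposase Tn5 cuts and tags DNA that nucleosomes leave exposed. One library came from a single zebrafish embryo homozygous for the allele npas4l bns297, and 1 from a single wild type embryo. Both were whole embryos at the 1-somite stage, freed of chorion and yolk, and the growth protocol names the AB strain for both libraries. The allele is labelled a knockout and is carried by every cell of the embryo. npas4l itself was not analysed here, so the genotypes rest on the labels. The mutant library had 7066666 reads in regions and the wild type library 7853828, both recovered from the normalised values. Over all regions the median was 94 normalised reads in each library. With 1 library per genotype, no difference between genotypes has a replicate check and none was tested.

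Endothelial cells of the zebrafish arise from lateral plate mesoderm under Npas4l, a bHLH-PAS factor that acts upstream of the first endothelial transcription factors. Angioblasts then use receptors for VEGF, angiopoietin and apelin signals to migrate and to form vessels, with neuropilins as co-receptors for VEGF and semaphorins. Claudins and Pecam1 seal and hold the contacts between endothelial cells. In a whole embryo most reads come from other cell types, and several of these genes are also used there, such as the apelin receptors in gastrulating mesoderm. Fewer endothelial progenitors and less open chromatin in each of them cannot be told apart in such libraries.

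Distal regions of these genes were mostly lower in the mutant library, and promoter regions were mostly not. All values are normalised read counts as scaled by the authors, and each ratio is mutant over wild type on the scale log2(value + 1), which understates differences at low values. Each ratio is followed by a 95% interval, computed by the exact Clopper-Pearson method from the reads of both libraries. It describes counting error alone, and amplified copies of a fragment can make it too narrow. Over the 27 regions the median log2 ratio was −0.43, with 17 below 0, 63.0% of them. Over all regions with a gene it was 0.018, with 47.6% below 0. The 18 distal regions had a median of −0.48, and 14 lay below 0. All distal regions had a median of −0.095, with 57.1% below 0. For the 9 promoter regions the median was 0.17 and 3 lay below 0, and for all promoter regions it was 0.11, with 36.0% below 0.

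**Figure D1:**
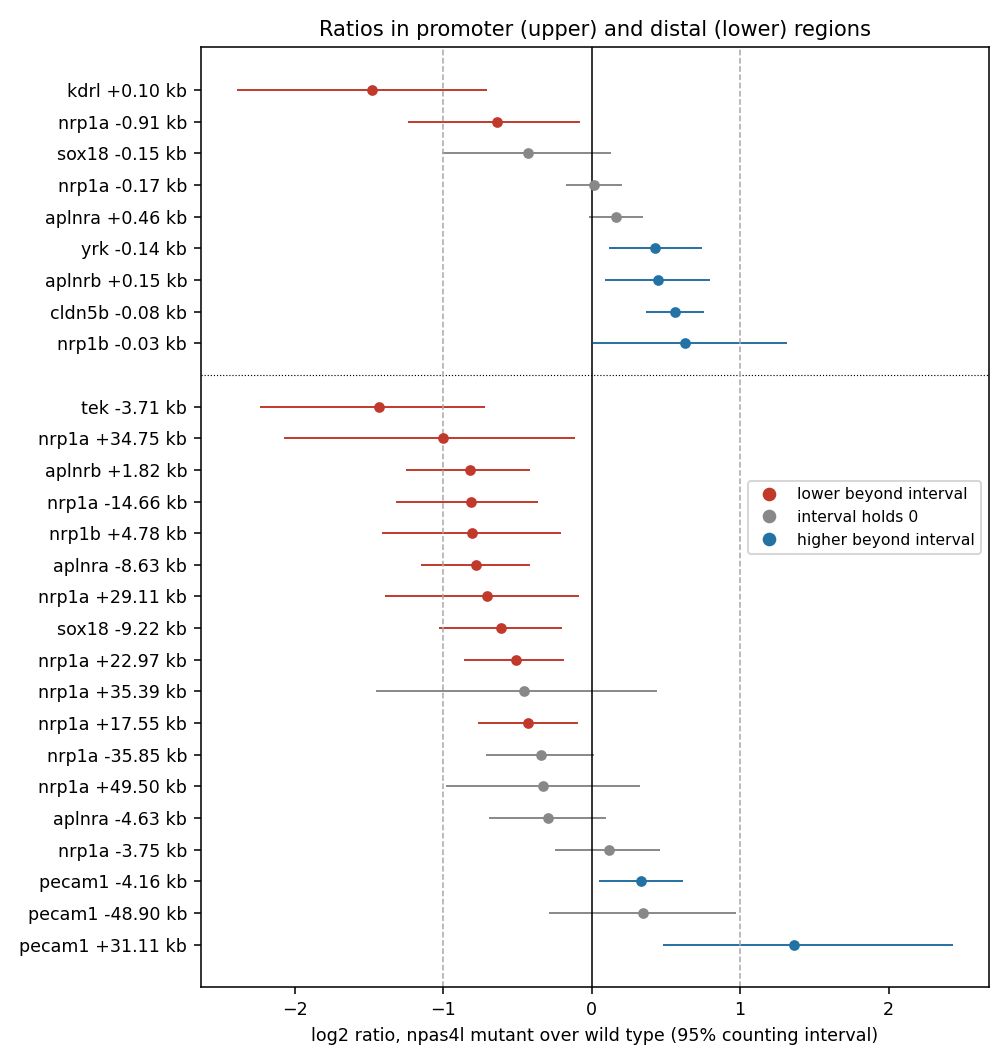
Mutant over wild type log2 ratio (horizontal axis) for the 9 promoter regions (upper block) and the 18 distal regions (lower block), each named by gene and by the distance of its centre from the TSS, negative being upstream. Bars are exact 95% counting intervals and dashed lines mark 2-fold. kdrl at −1.48 and tek at −1.43 are the lowest regions of their blocks, and the 3 pecam1 regions are the highest distal ones.

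Of the 27 regions, 12 were lower and 6 higher in the mutant library beyond their intervals, 44.4% and 22.2% of them, and 9 intervals held 0. Among all regions with a gene these shares were 16.9% lower and 20.9% higher. Of the 18 distal regions 10 were lower and 2 higher, while 22.8% of all distal regions were lower and 15.6% higher. Of the 9 promoter regions 2 were lower and 4 higher, while 9.67% of all promoter regions were lower and 27.2% higher. The shares among the members were thus above the background for lower and higher promoter regions and for lower distal regions, and below it for higher distal regions, with few regions behind each share. Many of the lower regions belonged to 1 gene. Without nrp1a, which holds 11 of the 27 regions, 6 of 16 regions were lower and 6 higher, and the median log2 ratio was −0.064. By class, the median was then −0.61 for the 9 distal regions left and 0.42 for the promoter regions. Of these 9 distal regions 5 were lower and 2 higher beyond their intervals, 55.6% and 22.2%. The share of higher distal regions was then above that of all distal regions, not below it.

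A difference of at least 2-fold was reached by 3 lower regions and 1 higher region. They lay at kdrl, tek and nrp1a, and at pecam1. Among all regions with a gene 3.43% were lower by this rule and 3.44% higher. For promoter regions the shares were 1.02% lower and 2.68% higher, and for distal regions 5.42% and 4.07%. All 4 of these regions had a mean below 50 normalised reads. At that level 9.99% of all regions with a gene met the 2-fold rule as lower and 8.75% as higher. By class these shares were 11.9% and 8.01% for distal regions, and 4.52% and 10.8% for promoter regions. Of all regions with a gene at that level, 18.4% were lower and 15.2% higher beyond the counting interval. Of the 9 member regions at that level, 4 were lower and 2 higher beyond it.

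**Figure D2:**
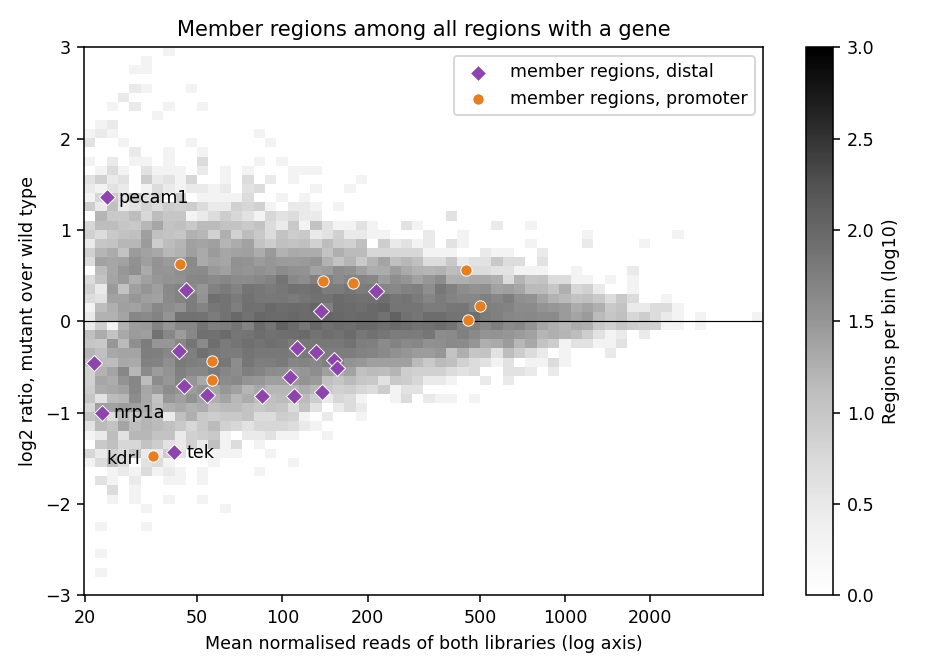
Mutant over wild type log2 ratio (vertical axis) against the mean normalised reads of both libraries (log axis) for the 18 distal (diamonds) and 9 promoter regions (circles), over the density of all regions with a gene (grey, regions per bin; regions outside the axes are not drawn). The spread widens towards low levels, where the 4 named regions past 2-fold lie, and most distal regions sit below 0.

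The VEGF and angiopoietin receptors had 1 region each, and these were the lowest of the 27. kdrl (ENSDARG00000105215) encodes a VEGF receptor of endothelial cells and angioblasts. Its promoter region, on chromosome 14 at 32704372 to 32704712 of the build GRCz10, had 18 normalised reads in the mutant library and 52 in the wild type library. The log2 ratio was −1.48 (−2.39 to −0.71), a 2.79-fold lower value. Of the 692 promoter regions in the same level decile, none other was as low, the kdrl region being the 1 counted there. Few kdrl reads lay behind it, 17 recovered reads in the mutant library and 55 in the wild type library.

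tek (ENSDARG00000028663) encodes the angiopoietin receptor Tie2, which steadies vessels once they have formed. Its region lay 3.71 kb upstream of the TSS, on chromosome 5 at 470151 to 470516. It had 22 normalised reads in the mutant library and 61 in the wild type library, with a log2 ratio of −1.43 (−2.23 to −0.72), 2.696-fold lower. Among 1871 distal regions in the same level decile, 3.37% were as low or lower. Neither gene had a further region by the rule. A region 50.95 kb upstream of the kdrl TSS, just outside the limit, had 293 normalised reads in the mutant library and 269 in the wild type library. A region 55.4 kb downstream of the tek TSS had 155 in the mutant library and 182 in the wild type library. These were not the closest other regions at the 2 loci. Closer ones were present but were not counted for kdrl or tek by the rule. Just inside the limit, the most distant regions of pecam1 (48.9 kb) and nrp1a (49.5 kb) had log2 ratios of 0.34 and −0.33.

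Other regions near kdrl and tek were examined as well, without a test between the loci. Within 100 kb of the kdrl TSS lay 8 other regions, 2 of them promoter regions, with a median log2 ratio of −0.29. Of the 8 regions 6 lay below 0 and 4, 50.0%, were lower beyond the counting interval. This share was 18.0% over the whole table, 16.9% over all regions with a gene and 22.8% over the distal ones. One of the 8 lay inside the kdrl gene body, 43.4 kb downstream of its TSS at 32661114 to 32661329, but nearer to the TSS of another gene. It had 18 normalised reads in the mutant library and 36 in the wild type library, giving a log2 ratio of −0.96 (−1.90 to −0.12). A second region inside the gene body, 52.8 kb downstream, had 355 in the mutant library and 362 in the wild type library, a ratio of −0.028 (−0.25 to 0.18). None of the 8 neighbours was higher beyond its interval. The 8 neighbours of tek had a median of −0.12, ranging between −0.35 and 0.32, and 2 of them, 25.0%, were lower beyond the interval. The tek region lay outside that range. The part of a wider lowering in the kdrl value was not tested.

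**Figure D3:**
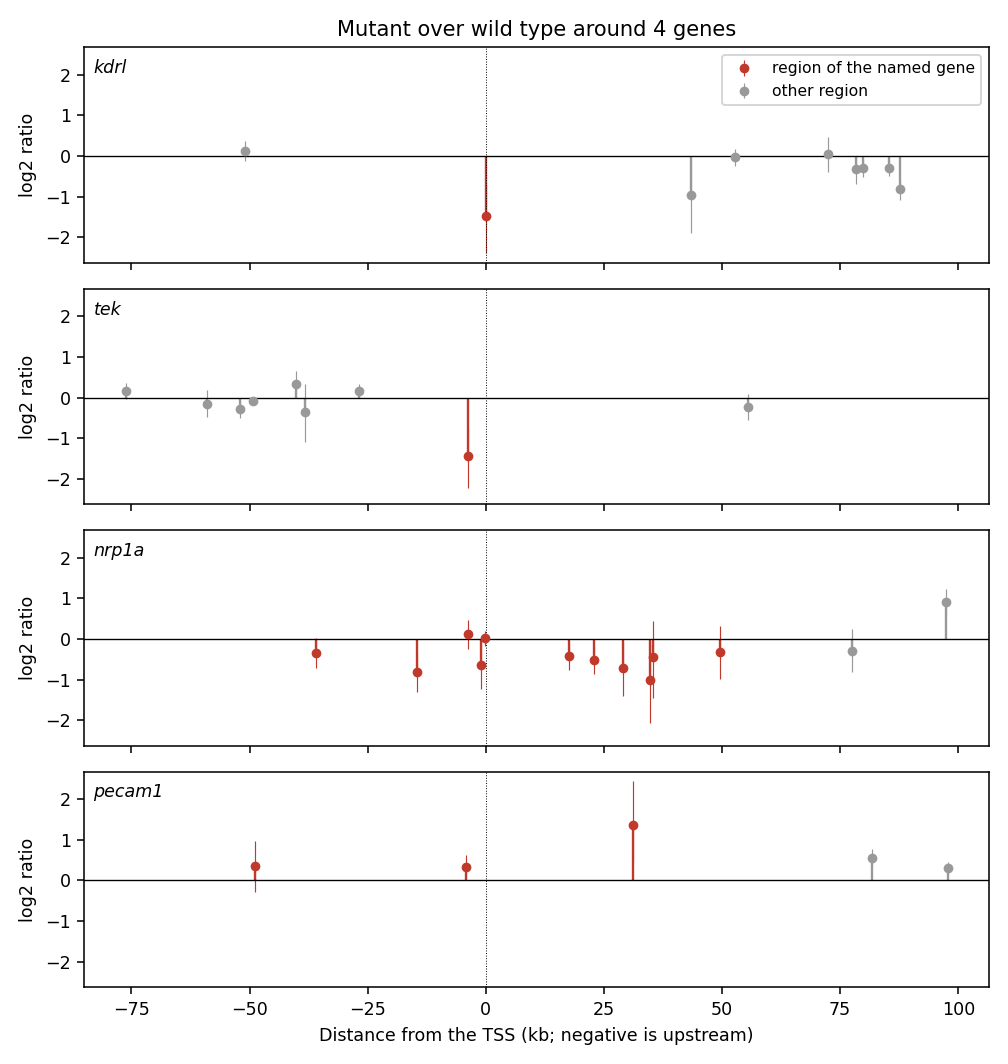
Mutant over wild type log2 ratio (vertical axis, with 95% counting intervals) against the distance from the TSS in kb (negative is upstream) for the regions within 100 kb of kdrl, tek, nrp1a and pecam1. Red points are the regions counted for the gene and grey points all others. The nrp1a regions lie below 0 on both sides of the TSS except at 2 points near it, and the 3 pecam1 regions lie above 0.

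The apelin receptors shared a pattern of a higher or similar promoter and lower distal regions. Both are G protein-coupled receptors for Apelin and Apela, which guide mesendodermal cells and heart progenitors during gastrulation and later act in endothelial cells. The aplnra (ENSDARG00000002172) promoter region, on chromosome 8 at 40286674 to 40288035, covered most of the gene. It had 526 normalised reads in the mutant library and 469 in the wild type library, giving a log2 ratio of 0.17 (−0.018 to 0.35). Upstream of it, the region 4.63 kb from the TSS had 101 in the mutant library and 124 in the wild type library, a ratio of −0.29 (−0.69 to 0.099). The region 8.63 kb upstream, at 40296223 to 40296667, had 101 in the mutant library and 174 in the wild type library, a ratio of −0.78 (−1.15 to −0.42). Of the 3 aplnra regions, the one farthest from the gene thus differed most, and its interval was the only one of the 3 that left out 0.

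aplnrb (ENSDARG00000036670) had 1 region at each end of its 2086 bp gene on chromosome 10. The promoter region at 8670456 to 8670988 had 161 normalised reads in the mutant library and 118 in the wild type library, giving a log2 ratio of 0.45 (0.092 to 0.80). At the 3′ end, the region at 8672030 to 8672759 had 79 in the mutant library and 140 in the wild type library, a ratio of −0.82 (−1.25 to −0.42). In the same level decile 16.2% of promoter regions were as high as the first or higher. Of such distal regions 5.66% were as low as the second or lower. The 2 regions differed in opposite directions, each beyond its counting interval, although their centres lay less than 2 kb apart. Summed, they had 240 normalised reads in the mutant library and 258 in the wild type library (−0.10, −0.37 to 0.15), so the sum over the gene showed neither difference.

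nrp1a (ENSDARG00000102153), a neuropilin gene of 144529 bp on chromosome 24, held the most regions. Of its 11 regions 9 were below 0, where 47.6% of all regions with a gene were. Neuropilins bind VEGF beside Kdrl and bind class 3 semaphorins in axons and vessels. The main promoter region at 1307696 to 1308558 had 455 normalised reads in the mutant library and 450 in the wild type library, giving a log2 ratio of 0.016 (−0.18 to 0.21). A smaller region 911 bp upstream of the TSS had 44 in the mutant library and 69 in the wild type library, a ratio of −0.64 (−1.24 to −0.079). The assigned distal region 3.75 kb upstream had 142 in the mutant library and 131 in the wild type library, 0.12 (−0.25 to 0.46). Up to this distance the gene therefore showed values near 0 at its larger regions.

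The 8 unassigned nrp1a regions all lay below 0, and 5 of them were lower beyond their intervals. Of all unassigned regions with a gene by the rule, 59.9% lay below 0 and 24.4% were lower beyond the interval. The upstream region 14.7 kb from the TSS had 61 normalised reads in the mutant library and 108 in the wild type library (−0.81, −1.32 to −0.36). The one 35.9 kb upstream had 116 in the mutant library and 147 in the wild type library (−0.34, −0.71 to 0.017). The other 6 lay inside the gene body between 17.6 kb and 49.5 kb downstream of the TSS, with a median of −0.48. In the deepest of these, at 1284811 to 1285181, 128 normalised reads in the mutant library stood against 183 in the wild type library (−0.51, −0.86 to −0.18). The broad region of 1512 bp at 17.6 kb had 130 in the mutant library and 175 in the wild type library (−0.43, −0.77 to −0.089). These are the better covered regions of the gene body, and both were lower beyond counting error. In the same level decile 11.0% of distal regions were as low as the deepest one or lower, and 16.9% as low as the broad one or lower.

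The remaining 4 nrp1a regions of the gene body were shallow. The one 29.1 kb downstream had 34 normalised reads in the mutant library and 56 in the wild type library (−0.70, −1.39 to −0.083). At 34.8 kb there were 15 in the mutant library and 31 in the wild type library, which meets the 2-fold rule exactly (−2.07 to −0.11 on the log2 scale). Among distal regions of its level decile 16.2% were as low or lower. The region at 35.4 kb had 18 in the mutant library and 25 in the wild type library (−0.45, −1.45 to 0.44). All 4 pointed the same way, and 2 of their intervals held 0, the second being that of the region at 49.5 kb. There the mutant library had 38 normalised reads and the wild type library 48 (−0.33, −0.98 to 0.32). Farther downstream, 3 regions inside the nrp1a body lay nearer to another TSS and were not counted for it. Their log2 ratios were −0.30 (−0.82 to 0.25) at 77.5 kb, 0.91 (0.60 to 1.24) at 97.3 kb and −0.43 (−0.74 to −0.12) at 126 kb, so the low values did not run through the whole gene.

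nrp1b (ENSDARG00000027290), the second neuropilin 1 gene, had 1 promoter region and 1 region inside the gene on chromosome 2. The promoter region at 43619657 to 43619933 had 53 normalised reads in the mutant library and 34 in the wild type library, giving a log2 ratio of 0.63 (0.0088 to 1.32). The other region, 4.78 kb downstream of the TSS and within the gene at 43624438 to 43624761, had 39 in the mutant library and 69 in the wild type library, a ratio of −0.81 (−1.41 to −0.21). As at aplnrb, the promoter was higher and the distal region lower, each beyond its interval, though the promoter interval only just left out 0. In the same level decile 16.3% of promoter regions were as high or higher, and 11.7% of distal regions as low or lower.

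Distal and promoter reads could be set against each other in the 5 genes with both, a comparison chosen after the values were seen. The distal log2 ratio lay below the promoter ratio in all 5, with a median difference of −0.72. Among all 5808 genes of the table with both kinds of region, 62.2% had a lower distal ratio and the median difference was −0.14, so the direction alone is common. The difference was −1.43 (−2.36 to −0.55) at nrp1b and −1.26 (−1.82 to −0.72) at aplnrb. Of the 5808 genes 2.94% and 4.22% had a difference as low as these or lower. At aplnra it was −0.72 (−1.05 to −0.40), where 13.8% of genes were as low. Smaller differences were found at nrp1a, −0.35 (−0.59 to −0.12), and at sox18, −0.18 (−0.89 to 0.54), which lay well inside the range of all genes. These intervals are exact conditional intervals of the odds ratio of the reads and describe counting error alone. The promoter ratio was above 0 and the distal ratio below 0 in 3 of the 5 genes, and in 31.2% of the 5808.

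**Figure D4:**
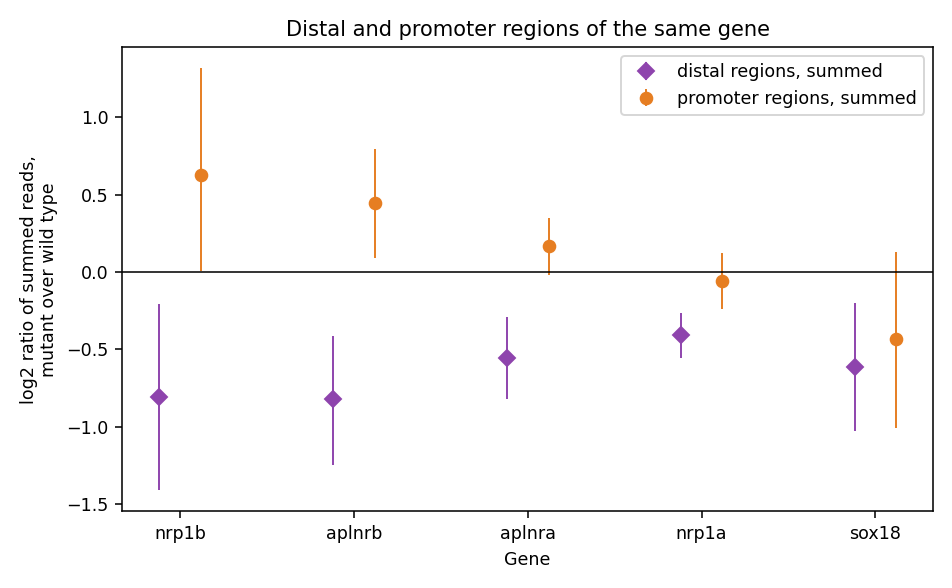
Mutant over wild type log2 ratio for the summed reads of distal (diamonds) and promoter regions (circles) of the 5 genes with both, with exact 95% counting intervals. The distal ratio lies below the promoter ratio in each gene, and the intervals overlap at sox18.

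The regions of both junction genes had ratios above 0, and 3 of these 4 were higher in the mutant library beyond their intervals. Of all promoter regions 27.2% were higher beyond the interval, and of all distal regions 15.6%. cldn5b (ENSDARG00000014059) encodes a claudin of tight junctions. Its promoter region, on chromosome 10 at 44147270 to 44147926, had 529 normalised reads in the mutant library and 359 in the wild type library, giving a log2 ratio of 0.56 (0.37 to 0.76). Among 2442 promoter regions in the same level decile, 2.498% were as high or higher. It was the deepest of the 6 member regions that were higher beyond their intervals. Within 100 kb of cldn5b lay 9 other regions with a median of 0.17, of which 2 were higher and 0 lower beyond their intervals.

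pecam1 (ENSDARG00000060263, pecam1a in the gene name table), the adhesion molecule CD31 of endothelial contacts, had 3 distal regions and no promoter region by the rule. The region 4.16 kb upstream on chromosome 3, at 59487449 to 59488055, had 239 normalised reads in the mutant library and 190 in the wild type library, giving a log2 ratio of 0.33 (0.050 to 0.61). At 48.9 kb upstream there were 51 in the mutant library and 40 in the wild type library (0.34, −0.28 to 0.97). Inside the gene, 31.1 kb downstream at 59522877 to 59523167, there were 35 in the mutant library and 13 in the wild type library, a ratio of 1.36 (0.48 to 2.44). In the same level decile 5.56% of 1816 distal regions were as high or higher. All 3 ratios were above 0, and the interval of the region at 48.9 kb held 0. The 2 other regions within 100 kb, both promoters of other genes, were also higher beyond their intervals, with a median of 0.42.

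The kinase gene and the transcription factor gene went in different directions. yrk (ENSDARG00000004378, FGR in the gene name table) encodes a Src family tyrosine kinase. Its promoter region, on chromosome 19 at 43763129 to 43763541, had 203 normalised reads in the mutant library and 151 in the wild type library, giving a log2 ratio of 0.42 (0.12 to 0.74). As high or higher were 13.7% of 1750 promoter regions in the same level decile, so values like it were not rare among promoters. sox18 (ENSDARG00000058598) encodes a SoxF factor of early endothelial and arterial-venous development. Its promoter region on chromosome 23, at 8861867 to 8862169, had 48 normalised reads in the mutant library and 65 in the wild type library (−0.43, −1.01 to 0.13). The region 9.22 kb upstream, at 8852713 to 8853202, had 84 in the mutant library and 129 in the wild type library (−0.61, −1.03 to −0.20). Both ratios were below 0, and the interval of the promoter region held 0.

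Levels were compared between genes as normalised reads per 100 bp, with exact Poisson 95% intervals of the reads. In the mutant library the promoter regions ran from 5.29 (3.10 to 8.53) at kdrl to 80.6 (73.8 to 88.1) at cldn5b. In the wild type library they ran from 12.3 (8.58 to 17.0) at nrp1b and 15.3 (11.4 to 19.8) at kdrl to 54.7 (49.3 to 60.4) at cldn5b. Between these stood, in the wild type library, sox18 at 21.5, aplnrb at 22.2, the upstream nrp1a region at 27.2, aplnra at 34.5, yrk at 36.7 and the main nrp1a region at 52.2. In the wild type library the intervals of neighbours in this order overlapped throughout, except between yrk and the main nrp1a region. Those of kdrl also overlapped sox18 and aplnrb, and those of nrp1b overlapped sox18, so no separate tiers can be read from the lower promoters. The wild type kdrl promoter lay at the 17.7 percentile of all promoter regions on this scale and that of cldn5b at the 77.6 percentile. In the mutant library the kdrl interval lay below that of every other promoter region in the set, whereas in the wild type library it overlapped others.

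**Figure D5:**
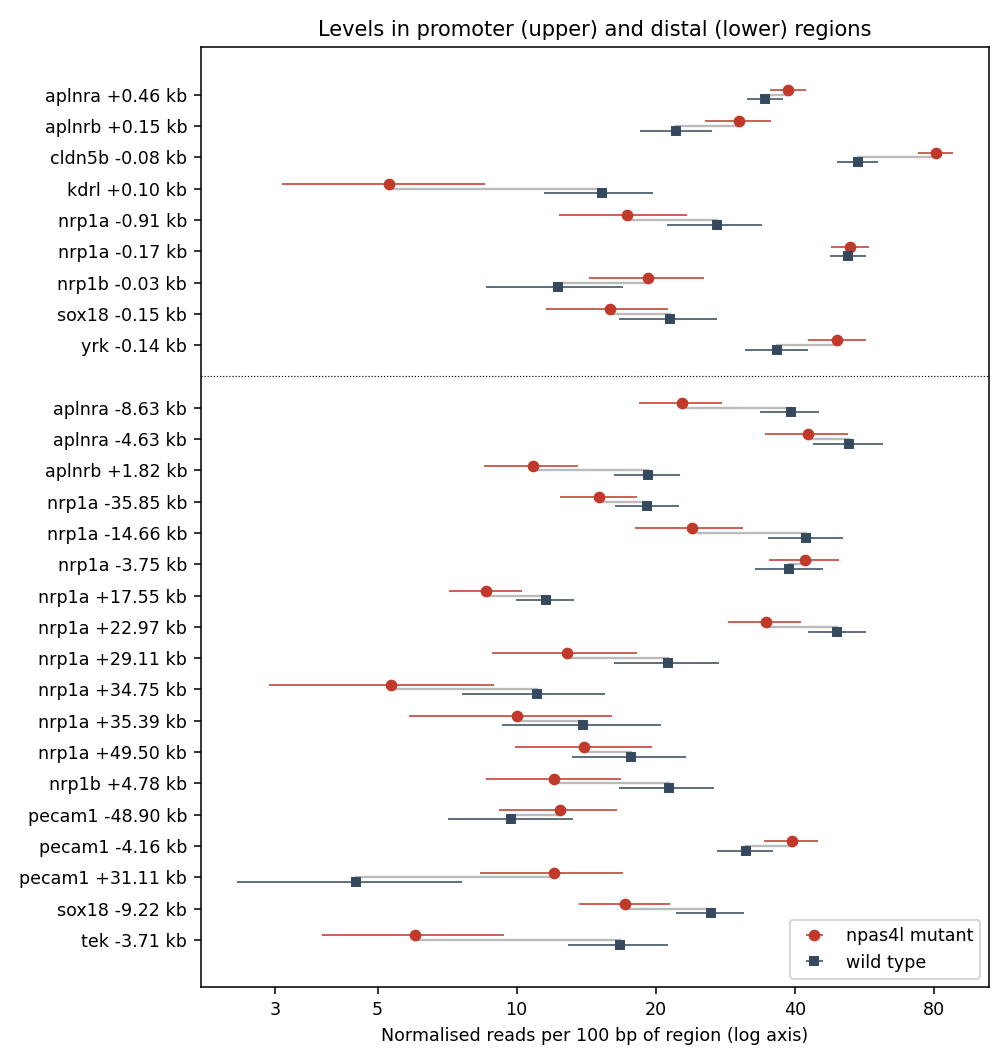
Normalised reads per 100 bp (log axis) in the mutant (red circles) and the wild type library (dark squares) for the 9 promoter regions (upper block) and the 18 distal regions (lower block), with exact Poisson 95% intervals. In the mutant library kdrl has the lowest promoter level, 5.29, and cldn5b the highest, 80.6.

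Distal regions were also divided by position, without a test of the difference. The 9 that overlapped their gene body, 6 of them nrp1a regions, had a median of −0.51, with 8 below 0 and 6 lower beyond the interval. The 9 outside it had a median of −0.34, with 6 below 0 and 4 lower beyond the interval. In each group 1 region was higher beyond the interval. For all distal regions with a gene the medians were −0.15 inside and −0.072 outside the gene body. Of these, 60.9% inside and 55.1% outside lay below 0. Lower beyond the interval were 24.5% inside and 21.9% outside, and higher were 13.1% and 17.0%. Whether a region inside a gene is exonic or intronic was not analysed here.

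Other genes of the same pathways were read from a list of 63 ligands, receptors, junction proteins, Src family kinases and SoxF genes, of which 32 had 86 regions by the same rule. The rest, among them kdr, flt1, flt4, tie1, cdh5 and sox17, had no region under these symbols by the rule and could not be described. Over the 86 regions the median log2 ratio was −0.17, with 57 below 0, 66.3% of them. All regions with a gene had a median of 0.018, with 47.6% below 0. Beyond their intervals 25 were lower and 10 higher, 29.1% and 11.6% of them, where all regions with a gene had 16.9% and 20.9%. The 57 distal regions had a median of −0.30, with 19 lower and 5 higher, 33.3% and 8.77%, where all distal regions had 22.8% and 15.6%. The 29 promoter regions had a median of −0.092, with 6 lower and 5 higher, 20.7% and 17.2%, where all promoter regions had a median of 0.11 and shares of 9.67% and 27.2%. Lower distal regions thus took a larger share than the background over this list as a whole, and its promoter median was not above 0. Every distal region of mcama and most of those of nrp2b were among the 19 lower distal regions. The larger share thus leaned on these genes. It was not computed without them, so an excess among the other genes of the list cannot be read from it.

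Within that list the region with the lowest and that with the highest ratio of each group were taken as examples, so that their opposite directions follow from the choice. Among 11 regions of VEGF genes, a region 43.1 kb from the TSS of the ligand gene vegfba had 20 normalised reads in the mutant library and 48 in the wild type library (−1.22, −2.09 to −0.46). A region 1.40 kb from the TSS of the ligand gene vegfaa had 307 in the mutant library and 206 in the wild type library (0.57, 0.32 to 0.84). Beyond their intervals 2 of the 11 VEGF regions were lower and 2 higher, 18.2% each. Of 36 regions of neuropilin, plexin and semaphorin genes 12 were lower and 3 higher beyond their intervals, 33.3% and 8.33%. Many of the 12 lower ones belonged to nrp2b. All regions with a gene had 16.9% and 20.9%. Most of the 36 were distal, and all distal regions had 22.8% and 15.6%. A region within 1 kb of the TSS of plxnd1, a semaphorin receptor of endothelial cells, had 17 in the mutant library and 35 in the wild type library, 2-fold lower (−1.97 to −0.15 on the log2 scale). A deeper plxnd1 promoter region, 0.141 kb from the TSS, had 67 in the mutant library and 64 in the wild type library (0.065, −0.45 to 0.59). The promoter of the semaphorin gene sema3d had 60 in the mutant library and 41 in the wild type library (0.54, −0.066 to 1.13).

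The single region of an angiopoietin gene, the angpt4 promoter, had 47 normalised reads in the mutant library and 69 in the wild type library (−0.54, −1.12 to 0.011). Of the 5 regions of apelin receptor ligand genes, one 8.83 kb from the TSS of apela had 17 in the mutant library and 34 in the wild type library (−0.96, −1.94 to −0.10). Another, 31.0 kb from the TSS of the apelin gene, had 69 in the mutant library and 38 in the wild type library (0.84, 0.29 to 1.49). Apela is the ligand that acts on these receptors during gastrulation. Beyond their intervals 1 of the 5 regions was lower and 1 higher, 20% each, against 16.9% and 20.9% of all regions with a gene. Of 25 regions of junction and surface genes 8 were lower and 3 higher beyond their intervals, 32.0% and 12.0%, against the same 16.9% and 20.9%. Several of the 8 lower ones belonged to mcama. Most of the 25 were distal too, and all distal regions had 22.8% and 15.6%. A distal region 29.6 kb from cldn5a, the paralog of cldn5b, had 33 in the mutant library and 79 in the wild type library (−1.23, −1.90 to −0.65). The cldn5a promoter, the region comparable with the cldn5b promoter, had 1099 in the mutant library and 1130 in the wild type library (−0.040, −0.16 to 0.081). A region 19.4 kb from egfl7, a secreted factor of endothelial cells, had 36 in the mutant library and 16 in the wild type library (1.12, 0.30 to 2.11). Among 8 regions of Src family kinase genes, the hck promoter had 59 in the mutant library and 93 in the wild type library (−0.65, −1.17 to −0.18). The fyna promoter had 527 in the mutant library and 426 in the wild type library (0.31, 0.12 to 0.49). Of these 8 regions 2 were lower and 1 higher beyond their intervals, 25% and 12.5%, against the 16.9% and 20.9% above.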

How the data were processed

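ATAC-seq libraries from 1 npas4l mutant and 1 wild type embryo were compared. Tools listed per the submitters' processing notes are DESeq2 1.14.1, DESeq, deepTools 2.5.4, MACS2, STAR 2.5.3a, Trimmomatic 0.36 and Picard 2.9.0, and the builds are danRer10 and GRCz10. Their roles, the merging of regions, duplicate removal and any shift of read ends are not given in the sources used here. As deposited, the library values are whole-number scores, read counts per region that the authors scaled and rounded, as the values show. Of the mutant values up to 4000, 99.96% were whole reads multiplied by 1.06505, where a value matched if a whole read rounded to it. A share of about 0.939 of all whole numbers would match such a factor in any case. Reads were recovered by dividing by 1.06505 and, for the wild type, by its reciprocal 0.939. With a factor below 1 every whole number can be reached, so the wild type factor had no such check. The recovered reads served for the counting intervals and for the totals of reads in regions, so the wild type total shares this lack of a check. The log2 ratio as deposited has the mutant on top, per the file headers, and equals the one computed here from the values with 1 added to each. The fraction of a region inside its gene body, per the file headers, was recomputed from the deposited coordinates. Coordinates are as deposited, and whether they count from 0 or 1 is not given.

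Unassigned regions went to the nearest TSS within 50 kb among the 14589 genes of the table. The main settings were a pseudocount of 1, a promoter limit of 1 kb and no filter on low values, the lowest mean being 20.5. Percentages of regions as low or as high refer to regions of the same class and the same of 10 level bins. Relatives were matched by symbol in any case of letters. All regions of the 10 genes are named, and of the relatives the lowest and highest region per group. A further promoter region of plxnd1 and that of cldn5a are given beside these. Members and lists were chosen with earlier results of these data known. Calculations were tested on simulated data. Software was scipy 1.17.1, numpy 2.4.6, matplotlib 3.10.9 and pandas 2.3.3 under Python 3.11.15.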

Additional observations from a re-analysis of the deposited data

How the results depend on the processing

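The medians of distal and of promoter regions kept their signs under every alternative run, from −0.61 to −0.40 for distal and from 0.076 to 0.42 for promoter regions. The median over all 27 regions ran from −0.50 (scaling by the highest 10% of regions) to −0.064 (nrp1a left out), except that with assigned regions only it was 0.016. With assigned regions only, 5 regions in place of 12 were lower beyond the counting interval, since the added regions are then absent. The distal ratio then lay below the promoter ratio in 3 genes in place of 5. sox18 had no distal region left, and at nrp1a the ratio of the assigned distal region (0.12) lay above that of the summed promoter regions (−0.057). The count of such genes was 4 with a mean of at least 50, a limit of 100 kb or a promoter limit of 2 kb. Leaving out nrp1a, an alternative chosen after seeing the data, gave 6 lower regions. The count of regions higher beyond the interval, 6 in the main run, was 5 when scaled to reads in regions. It was 4 when scaled by the highest 10% of regions or centred by level and promoter class. The count of lower regions was 13 under the first 2 of these scalings and 10 under the third. With a mean of at least 50, the count of member regions at least 2-fold lower was 0 and that of higher ones was 0. The count of at least 2-fold higher regions was also 0 with a pseudocount of 10, with unassigned regions within 25 kb and with assigned regions only. In the relatives list the 3 regions at least 2-fold lower became 1 with a pseudocount of 10, a mean of at least 50, a limit of 25 kb or assigned regions only, and 6 with a limit of 100 kb. Its 1 region at least 2-fold higher became 0 with a pseudocount of 10, a mean of at least 50 or assigned regions only. The ratio of each of the 27 regions stayed inside its counting interval under the pseudocount of 10 and the 3 scalings. kdrl, tek and the 2-fold regions of nrp1a and pecam1 rest on few reads, and there is no replicate library. No paired analysis was possible because there is 1 library per genotype.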
